A study of Mus musculus with 29 samples.

Results

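The proteasome genes of the mouse were followed in 3 RNA-seq experiments in which miR-99b-5p had been inhibited. Members were the protein-coding genes whose symbol opens with Psm, a letter from a to g and a number, which gave 50 of the 48709 gene identifiers in each count table. Of these, 5 were the inducible genes Psmb8, Psmb9, Psmb10, Psme1 and Psme2, 41 were constitutive subunits and factors, and 2 (Psma8 and Psmb11) were tissue-restricted subunits. The remaining 2, Psmc3ip and Psme2b, match by symbol only. Psmc3ip encodes a meiotic recombination factor, and Psme2b is a near copy of Psme2.

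The proteasome degrades proteins that carry ubiquitin chains. Its core particle, the 20S, is a stack of alpha and beta rings in which Psmb5, Psmb6 and Psmb7 encode the cutting subunits of most cells. Interferon-gamma induces Psmb8, Psmb9 and Psmb10, whose products take the places of Psmb5, Psmb6 and Psmb7 in newly made particles, the immunoproteasome, and change the peptides that are made for class I antigen presentation. The 19S particle recognizes and unfolds substrates, and Psme1 and Psme2 encode the subunits of PA28, an interferon-inducible cap that opens the core. In the brain these inducible genes are best known from microglia, the resident macrophages.

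The inhibitor, anti-miR-99b, was an antisense oligonucleotide built with locked nucleic acids (LNA) and directed at miR-99b-5p. The control, sc-control, was an LNA of scrambled sequence. In the first experiment male C57BL/6J mice, 3 months old, had received either LNA in lipid nanoparticles by injection into the prefrontal cortex (PFC), and the tissue was taken after 5 days (n = 3 and 3 mice). In the second, primary microglia from CD1 pups of postnatal day 1, shaken off mixed glia and grown in L929-conditioned medium, had been treated for 2 days (n = 4 and 4 libraries). In the third, CD1 cortical neurons from embryonic day 17.5 had been kept for 48 h with such microglia after the same treatment (n = 7 anti-miR-99b and 8 sc-control). In the PFC and the co-cultures RNA came from all cells together, so that fewer cells of a type and less RNA per cell cannot be told apart. The study's methods call each n a biological sample in general, but name no separate cultures or litters for these libraries. Their p-values measure the spread between these libraries, which may in part be technical.

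Library totals ran from 21324156 to 37901110 counted reads. Defining markers were in place, with a summed level of 16 microglia markers of 15441 to 16455 CPM (a gene's reads scaled to the library total and edgeR's TMM factor) in the microglia, 658 to 942 CPM in the PFC and 178 to 246 CPM in the co-cultures. In the co-cultures P2ry12, Tmem119, Siglech and Gpr34, which mark microglia in the brain, were each below 1 CPM on average. In the cultured microglia Siglech alone of the 16 was below 1 CPM, and none was at 0 in every library of an experiment.

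The sequence of mature miR-99b-5p is shown because the match to its seed, bases 2 to 8 (capitals), was searched for in the members. It lies on chr17:17830194-17830215 of GRCm38.p6, plus strand, and is taken from RefSeq.
mmu-miR-99b-5p: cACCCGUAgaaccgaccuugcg
The match to this seed, TACGGGT, stood in the annotated 3′ UTR of 250 of 21039 protein-coding genes (1.19%) and of 0 of the 50 members. This says only that these letters are not in those windows.

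The promoters of 4 members are shown, from 250 bases before to 50 bases after the RefSeq start (GRCm38.p6), because the inducible and the constitutive genes are set against each other below. Capitals mark, on either strand, the core of the interferon-stimulated response element (ISRE, GAAA followed by any 2 bases and GAAA again), the gamma-activated site (GAS, TTCNNNGAA) or the antioxidant response element (ARE, TGACNNNGC), and no marked matches overlap. Psmb8 lies on chr17:34197945-34198244 (plus strand), Psmb9 on chr17:34187281-34187580 (minus strand), Psme1 on chr14:55578244-55578543 (plus strand) and Psmb5 on chr14:54617946-54618245 (minus strand).
Psmb8: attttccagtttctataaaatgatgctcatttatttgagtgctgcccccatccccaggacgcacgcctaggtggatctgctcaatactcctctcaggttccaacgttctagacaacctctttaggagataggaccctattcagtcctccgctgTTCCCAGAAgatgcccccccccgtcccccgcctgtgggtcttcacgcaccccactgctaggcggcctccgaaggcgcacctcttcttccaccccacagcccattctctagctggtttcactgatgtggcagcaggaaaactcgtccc
Psmb9: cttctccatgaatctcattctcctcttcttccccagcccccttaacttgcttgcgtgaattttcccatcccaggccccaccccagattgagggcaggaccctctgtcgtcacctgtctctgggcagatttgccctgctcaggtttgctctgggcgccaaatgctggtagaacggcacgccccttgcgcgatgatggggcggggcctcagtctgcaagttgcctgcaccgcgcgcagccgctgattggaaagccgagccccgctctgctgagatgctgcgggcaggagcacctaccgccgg
Psme1: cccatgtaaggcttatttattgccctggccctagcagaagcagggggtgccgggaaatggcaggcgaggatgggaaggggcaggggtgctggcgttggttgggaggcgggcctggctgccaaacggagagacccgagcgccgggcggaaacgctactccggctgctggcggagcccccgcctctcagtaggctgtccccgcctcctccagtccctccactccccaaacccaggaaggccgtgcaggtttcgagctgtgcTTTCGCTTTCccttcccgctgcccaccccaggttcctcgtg
Psmb5: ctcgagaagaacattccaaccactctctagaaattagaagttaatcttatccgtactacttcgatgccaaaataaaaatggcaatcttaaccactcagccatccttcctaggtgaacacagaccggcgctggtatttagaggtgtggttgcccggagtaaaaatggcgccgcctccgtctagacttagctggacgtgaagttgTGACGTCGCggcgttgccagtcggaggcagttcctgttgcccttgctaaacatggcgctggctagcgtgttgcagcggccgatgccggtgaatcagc
The GAS letters of Psmb8 began at base -97, the ARE letters of Psmb5 at base -47 and the ISRE letters of Psme1 at base 9 from the start, and Psmb9 held none of the 3. Among all 32851 promoters of this length the ISRE letters stood in 3.443%, the GAS letters in 8.298% and the ARE letters in 12.39%. Of 45 promoters of 42 members the 3 motifs stood in 5, 3 and 6. Besides Psme1, the ISRE letters stood in the constitutive members Psmb3, Psmd4, Psmd9 and Psmg4. Besides Psmb8, the GAS letters stood in Psmd2 and Psmg1, also constitutive. The promoters of the inducible Psmb10 and Psme2, which are not shown, held none of the 3. These matches are a description of the letters, not of binding.

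The inducible genes had their highest levels in the microglia. Among sc-control libraries the mean level of Psmb8 was 66.5 ± 4.89 CPM (SD, n = 4) in the microglia, 4.94 ± 1.08 CPM (n = 3) in the PFC and 3.85 ± 0.398 CPM (n = 8) in the co-cultures. That of Psmb9 was 34.7 ± 1.69, 3.69 ± 0.689 and 3.27 ± 0.635 CPM, and that of Psmb10 was 71.4 ± 6.39, 43.2 ± 1.37 and 20.1 ± 1.78 CPM in the same order. The control microglia thus stood 13.5 times above the control PFC for Psmb8, 9.39 times for Psmb9, 7.33 times for Psme2, 3.74 times for Psme1 and 1.65 times for Psmb10. Against the co-cultures these ratios of mean CPM were 17.2, 10.6, 4.55, 2.74 and 3.55. The 31 constitutive subunits of the 20S and 19S particles had a median ratio of 1.27 (range 0.530 to 2.52) against the PFC and 1.03 (0.493 to 1.88) against the co-cultures. The 3 tables were normalized separately and the strains and ages differ, so these ratios are set side by side without a test.

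Levels of different genes were compared per kilobase of exon, merged over all annotated transcripts of a gene. By this measure the order among the inducible genes was the same in the microglia and the co-cultures. In the PFC Psmb10 and Psme1 had exchanged places. The order depends on these lengths, and in CPM the control microglia held more Psmb8 (66.5) than Psme2 (60.6). In the control PFC, Psmb10 led with 25.4 CPM per kb, followed by Psme1 (13.1), Psme2 (4.69), Psmb8 (1.46) and Psmb9 (1.01). In the control microglia Psme1 led with 49.0 CPM per kb, followed by Psmb10 (41.9), Psme2 (34.4), Psmb8 (19.7) and Psmb9 (9.47). In the control co-cultures the order was Psme1 (17.9), Psmb10 (11.8), Psme2 (7.55), Psmb8 (1.14) and Psmb9 (0.893). Neighbours in these orders did not overlap between control libraries, except Psmb8 and Psmb9 in the PFC and the co-cultures and Psme1 and Psmb10 in the microglia. The 31 constitutive 20S and 19S subunits had a median of 27.8 CPM per kb in control PFC, 31.3 in control microglia and 34.6 in control co-cultures. Their range was wide, from 4.75 (Psmb3, a structural beta subunit) to 132 (Psmc5, a 19S ATPase) CPM per kb in the PFC.

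**Figure D1:**
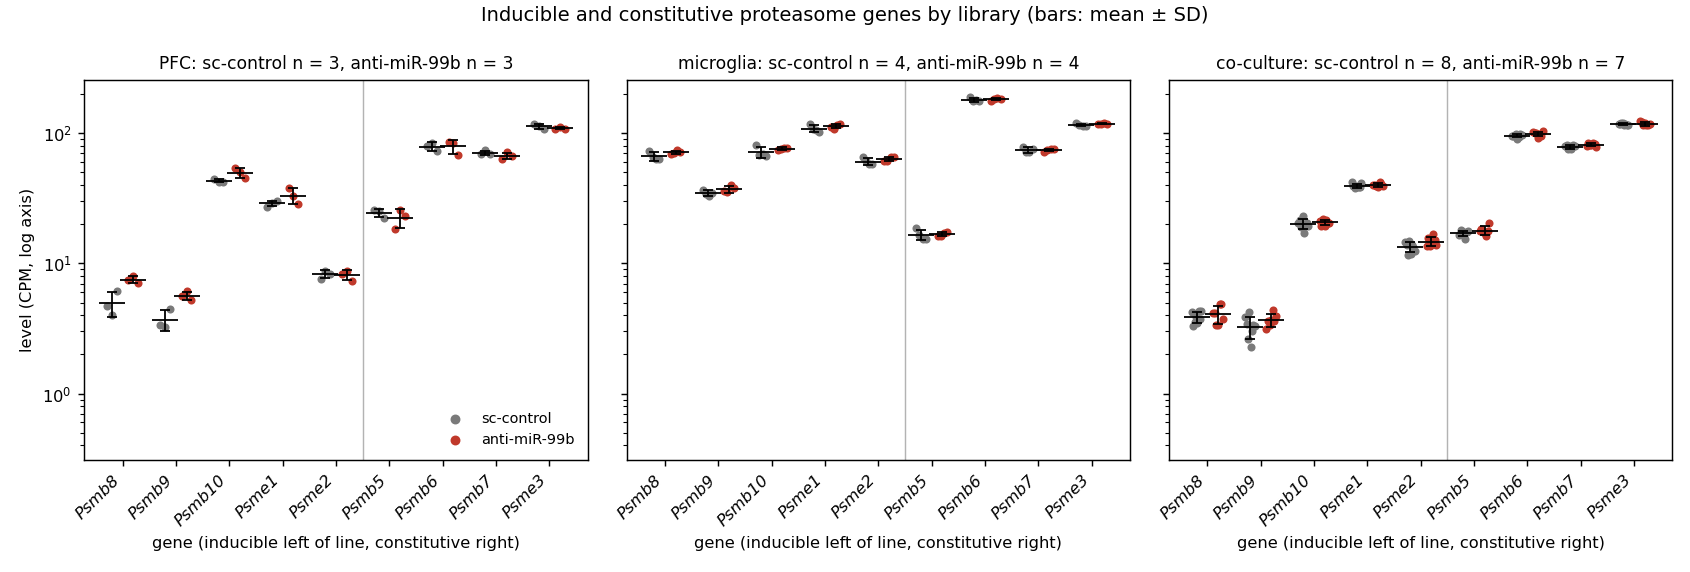
Level in CPM (log axis) of 5 inducible genes, the 3 constitutive catalytic subunits and Psme3 in every library of the 3 experiments, with bars for the mean and SD. Control Psmb8 averages 66.5 CPM in the microglia, 4.94 in the PFC and 3.85 in the co-cultures, while Psme3 averages 116, 113 and 118 CPM.

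Read counts bear on some of these levels. Of the 50-base words in its transcripts, Psmb5 shared 54.1% with other genes (most with Gm3375), Psma5 50.0%, Psme2 28.3% (with Psme2b) and Psmb8 11.9%, and Psmb10 none. Psmb8 overlaps Gm20496 over 498 exon bases and Psmb9 overlaps Tap1 over 212, each on the opposite strand. Neither the counting of shared reads nor its strand setting is given in the sources used here, so levels of Psmb5 and Psme2 in particular are uncertain. Of the tissue-restricted members Psmb11 (the thymus subunit) was near 0 throughout, at 0 to 1 read per library in the microglia and 0 to 6 elsewhere. Psma8, the germ-cell alpha subunit, averaged 0.295 CPM in the control PFC and 0.0585 CPM in the control co-cultures. It was tested only in the microglia, where it stood at 3.58 to 4.28 CPM.

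In the PFC the question was whether the inducible genes differed from the constitutive ones after anti-miR-99b. The 3 inducible catalytic genes had higher levels in all 3 anti-miR-99b mice than in any sc-control mouse, by 1.51-fold for Psmb8, 1.53-fold for Psmb9 and 1.15-fold for Psmb10. Of 47 members tested, 4 were higher without overlap (these 3 and Psmc3ip) and 4 were lower. Over all genes the shares without overlap were 7.52% higher and 5.81% lower. No member passed the threshold of an edgeR adjusted p under 0.1 with a log2 fold change beyond 0.2. The background was 0.0864% of 17364 genes called higher and 0.00% called lower. At an unadjusted p under 0.05, 3 of 47 members tested were higher and 0 lower, against 5.17% and 2.47% of all genes. DESeq2 called 0 members, where it called 0.490% of all genes higher and 0.0461% lower.

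Psmb8 (chr17:34197721-34201454, plus strand), which encodes the inducible chymotrypsin-like subunit, stood at 7.51, 7.97 and 7.04 CPM across the mice given anti-miR-99b. In the sc-control mice it stood at 4.72, 3.98 and 6.12 CPM, on 113 to 223 reads per library. The groups did not overlap, and sc-control replicate 4 was the nearest control. The log2 fold change was 0.60 (standard error 0.16, edgeR adjusted p = 0.374), and the exact two-sided permutation p was 0.1, the smallest that 3 against 3 allows.

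Psmb9 (chr17:34181987-34187764, minus strand), whose product takes the place of the caspase-like subunit Psmb6, stood at 5.60, 6.11 and 5.26 CPM after anti-miR-99b and at 3.35, 3.24 and 4.49 CPM after sc-control. The order of the libraries was the same as for Psmb8, with sc-control replicate 4 again highest among the controls. Its log2 fold change was 0.61 (standard error 0.15, edgeR adjusted p = 0.352). Tap1, which loads peptides into the endoplasmic reticulum and is named here because its exons overlap those of Psmb9, had a log2 fold change of 0.83 (edgeR adjusted p = 0.180).

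Psmb10 (chr8:105935735-105938444, minus strand), the inducible trypsin-like subunit, stood at 53.9, 50.2 and 45.2 CPM after anti-miR-99b and at 44.8, 42.4 and 42.6 CPM after sc-control. The lowest anti-miR-99b mouse lay just above the highest control. The log2 fold change was 0.20 (standard error 0.08, edgeR adjusted p = 0.648).

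The PA28 genes went apart from each other. Psme1 (chr14:55578123-55581529) stood at 38.1, 33.02 and 28.5 CPM after anti-miR-99b and at 27.3, 29.3 and 30.2 CPM after sc-control, with overlapping groups and a log2 fold change of 0.20 (edgeR adjusted p = 0.662). Psme2 (chr14:55587441-55591113) stood at 8.33, 8.76 and 7.37 CPM against 7.65, 8.81 and 8.36 CPM, a log2 fold change of -0.02 (edgeR adjusted p = 0.970) that was 0.017 under upper-quartile scaling.

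The constitutive catalytic genes overlapped between the groups. Psmb5 (chymotrypsin-like) averaged 22.4 ± 3.60 CPM after anti-miR-99b and 24.5 ± 1.84 CPM after sc-control (SD, n = 3 each), with a log2 fold change of -0.13. Psmb6 (caspase-like) averaged 79.6 ± 9.79 and 79.0 ± 6.09 CPM with 0.01, and Psmb7 (trypsin-like) 67.1 ± 3.97 and 71.0 ± 2.47 CPM with -0.08. Psme3, the constitutive nuclear cap, averaged 109 ± 2.09 and 113 ± 4.59 CPM with -0.05. The lowest edgeR adjusted p among these 4 was that of Psmb7, 0.772, and the value of Psmb6 was below 0 with no filter, with RUVs and with some libraries left out.

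Across the 41 constitutive genes the log2 fold changes were small, with 12 above and 29 below 0 and a median of -0.05. Of the 31 subunits among them 8 were above 0, and 14 under upper-quartile scaling, where their median was -0.02. The median of the 41 was -0.01 without anti-miR-99b replicate 3 (18 above 0), -0.02 without sc-control replicate 3, -0.03 without sc-control replicate 2 and -0.08 without anti-miR-99b replicate 2. Over all 17364 genes, 50.6% were above 0 and the median was 0.00. The range of the 41 went from -0.17 (Psmg4, an assembly chaperone of the 20S) to 0.13 (Psmg1, another), and the largest inducible value, that of Psmb9, lay outside it. By group, the median was -0.08 for the 7 alpha subunits, -0.08 for the 3 catalytic and -0.04 for the 4 structural beta subunits, -0.01 for the 6 ATPases of the 19S and -0.04 for its 11 other subunits. Of the 41, 0 were higher in all anti-miR-99b mice and 4 (Psma2, Psma6, Psmb1 and Psmd1) were lower in all of them, against 7.52% and 5.81% of all genes without overlap in these directions. The 5 inducible genes had a median log2 fold change of 0.20, with 4 of 5 above 0. Among symbol matches Psmc3ip had a log2 fold change of 0.29 (edgeR adjusted p = 0.675).

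**Figure D2:**
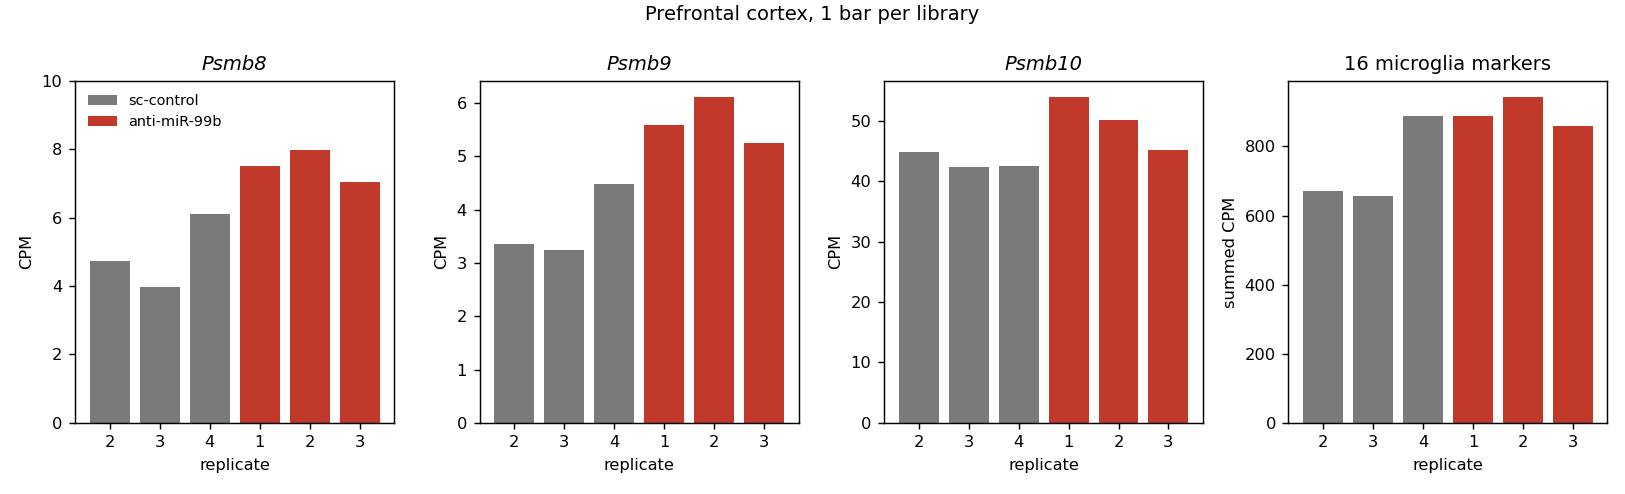
Level in CPM of Psmb8, Psmb9 and Psmb10 and the summed CPM of 16 microglia markers in the 6 PFC libraries, 1 bar per mouse, with replicate numbers below. Sc-control replicate 4 has the highest control value of Psmb8 (6.12 CPM), of Psmb9 (4.49 CPM) and of the marker sum (887 CPM).

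Microglia markers moved with these genes in the PFC. Of 16, 14 had a log2 fold change above 0, with a median of 0.29, and 0 passed the threshold. Their summed level was 888, 942 and 860 CPM after anti-miR-99b and 672, 658 and 887 CPM after sc-control, so that sc-control replicate 4 lay among the anti-miR-99b mice. The part of the marker level in the values of Psmb8, Psmb9 and Psmb10 was not tested. The summed level of 10 endothelial and mural markers ran from 358 to 404 CPM after anti-miR-99b and from 342 to 380 CPM after sc-control, with 8 of 10 above 0. The lists of 10 astrocyte and 12 neuron markers had 6 and 3 members above 0.

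The calls for Psmb8 and Psmb9 depended on sc-control replicate 4, and also on the filter and the model. Without this library, both passed the threshold, with a log2 fold change of 0.78 each (edgeR adjusted p = 0.0486 and 0.0542), where 1.11% of all genes were called higher. With all libraries kept, the same 2 members passed with no filter (0.949% of all genes) and with a RUVs factor in edgeR (1.22%) or DESeq2 (1.02%). They also passed with a replicate block (2.72%) and in lane 6 alone (1.77%). Both of these fits held 2 against 2 mice and again left out sc-control replicate 4. Over all 17 alternatives the adjusted p of Psmb8 ran from 0.000212 to 0.970 and the log2 fold change from 0.47 to 0.83. Those of Psmb9 ran from 0.000974 to 0.970 and from 0.53 to 0.83. For both genes the lowest adjusted p came from the replicate block. Within lane 6 (2 against 2 mice) the difference in mean log2 level was 0.77 for Psmb8 and 0.74 for Psmb9. Within lane 7 (1 against 1) it was 0.19 and 0.21.

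In the microglia the inducible genes shared 1 direction. All 5 had a log2 fold change above 0, between 0.07 and 0.11, and none passed the threshold of an edgeR adjusted p under 0.1 with a log2 fold change beyond 0.1. The background was 0.435% of 14953 genes called higher and 0.0535% called lower. At an unadjusted p under 0.05, 3 of 49 members tested (Psmb8, Psmb9 and Psmb10) were higher and 1 (Psmg2, a 20S chaperone) was lower, against 3.40% and 3.04% of all genes. Of the 5 inducible genes, 0 reached that p without sc-control replicate 4, without sc-control replicate 6 or without anti-miR-99b replicate 4. Only 1 did without sc-control replicate 3 or without anti-miR-99b replicate 5, and all 5 did without sc-control replicate 2. DESeq2 called 0 members, with 0.221% of all genes higher and 0.0334% lower. The groups overlapped for every one of the 49, where 1.65% of all genes were higher and 1.80% lower without overlap.

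Psmb8 stood at 69.4, 70.1, 74.3 and 71.3 CPM in the anti-miR-99b microglia and at 73.7, 65.3, 63.4 and 63.5 CPM in the sc-control microglia. The first of these controls, sc-control replicate 2, was above 3 of 4 anti-miR-99b libraries and the other 3 were below all of them. The log2 fold change was 0.11 (standard error 0.04, edgeR adjusted p = 0.649).

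Psmb10 stood at 74.1, 76.1, 77.7 and 77.6 CPM after anti-miR-99b and at 80.8, 68.5, 69.5 and 66.7 CPM after sc-control, with a log2 fold change of 0.10 (edgeR adjusted p = 0.704). Psmb9 stood at 35.8, 35.2, 39.8 and 38 CPM and at 36.9, 34.3, 32.8 and 34.7 CPM, with 0.11 (edgeR adjusted p = 0.725). For both, sc-control replicate 2 was again the highest control. Psme1 averaged 114 ± 3.98 against 108 ± 6.81 CPM and Psme2 63.3 ± 2.43 against 60.6 ± 3.84 CPM (SD, n = 4 each), log2 fold changes of 0.07 each (edgeR adjusted p = 0.809 and 0.868).

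The constitutive catalytic genes lay closer to 0. Psmb5 averaged 16.8 ± 0.528 against 16.5 ± 1.52 CPM, Psmb6 183 ± 3.82 against 180.4 ± 6.53 CPM and Psmb7 74.4 ± 1.46 against 74.5 ± 3.57 CPM, with log2 fold changes of 0.03, 0.03 and 0.00. Psme3 averaged 118 ± 1.05 against 116 ± 2.66 CPM (0.03). Of the 41 constitutive genes 30 were above 0, with a median of 0.01, where 51.6% of all genes tested were above 0. Without sc-control replicate 4 the count was 20 and the median -0.00087, and without sc-control replicate 2 they were 37 and 0.03. Psmg2 was the lowest (log2 fold change -0.11, edgeR adjusted p = 0.695) and Psmg3, another chaperone of the 20S, the highest (0.09).

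Here 1 control decided the calls. Without sc-control replicate 2, Psmb8 (log2 fold change 0.16, edgeR adjusted p = 0.00801), Psmb10 (0.16, 0.00344) and Psme1 (0.11, 0.0523) passed the threshold, where 1.55% of all genes were called higher. With a replicate block Psmb8 and Psmb10 passed (0.576% of all genes), in a fit of 2 against 2 libraries that also left out sc-control replicate 2. Over all 18 alternatives the adjusted p of Psmb8 ran from 0.00801 to 1.00, that of Psmb10 from 0.00344 to 1.00 and that of Psme1 from 0.0523 to 1.00. Within lane 5, which held this library, the difference in mean log2 level was 0.01 for Psmb8, -0.00 for Psmb9 and 0.01 for Psmb10, and within lane 6 it was 0.20, 0.20 and 0.19 (2 against 2 libraries in each). Of 15 microglia markers tested 11 were above 0 with a median of 0.02 and 0 called, and their summed level ran from 15709 to 16455 CPM after anti-miR-99b and from 15441 to 16252 CPM after sc-control. Of 8 fibroblast and mesenchymal markers tested 7 were above 0 with a median of 0.12 and 0 called, and their summed level ran from 374 to 488 CPM after anti-miR-99b and from 358 to 445 CPM after sc-control. Their part in the values of the inducible genes was not tested.

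In the co-cultures the members with the lowest p-values were constitutive. Of 47 members tested, 42 had a log2 fold change above 0 and none passed the threshold of an edgeR adjusted p under 0.05 with a log2 fold change beyond 0.1. The background was 0.846% of 16193 genes called higher and 0.556% called lower. At an unadjusted p under 0.05, 14 members were higher and 1 (Psme4, the PA200 cap) was lower, against 6.40% and 6.81% of all genes. By DESeq2 0 members were called, with 0.976% of all genes higher and 0.797% lower.

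Of the 31 constitutive 20S and 19S subunits, 29 were above 0 with a median log2 fold change of 0.05, where all genes had a median of 0.00 and 51.6% above 0. At an unadjusted p under 0.05, 13 of the 31 were higher and 0 lower. This count was 7 without anti-miR-99b replicate 3, 7 without sc-control replicate 4 and 8 with a lane block. It was 1 with a replicate block, which kept only 4 pairs of same-numbered libraries. There the median was 0.02 and 26 were above 0. The 13 of the main fit were 4 alpha subunits (Psma2, Psma4, Psma5 and Psma7), 3 beta subunits (Psmb1, Psmb2 and Psmb7), the ATPase Psmc2 and 5 other 19S subunits (Psmd4, Psmd6, Psmd7, Psmd12 and Psmd13). The effects were small, and the largest of the 31 was that of Psma5 at 0.09 on the log2 scale. Only 1 member, Psmb1, had groups without overlap, where 0.303% of all genes were higher and 0.278% lower without overlap. Under RLE or upper-quartile scaling 29 and 30 of the 31 were above 0.

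Psmb1 (chr17:15475021-15499751, minus strand), a structural beta subunit, ran from 145 to 151 CPM with a median of 146 CPM in the 7 anti-miR-99b libraries. In the 8 sc-control libraries it ran from 137 to 144 CPM with a median of 140 CPM. The groups did not overlap. The log2 fold change was 0.07 (standard error 0.02, edgeR adjusted p = 0.0794), below the size limit, and the exact two-sided permutation p was 0.000311.

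Among the inducible genes Psme2 had the lowest p. It ran from 13.6 to 16.8 CPM (median 14.5) after anti-miR-99b and from 11.7 to 14.8 CPM (median 13.6) after sc-control, overlapping groups with a log2 fold change of 0.15 (standard error 0.06, edgeR adjusted p = 0.243). Psmb8 ran from 3.36 to 4.88 CPM (median 4.19) after anti-miR-99b and from 3.30 to 4.34 CPM (median 3.81) after sc-control, with 0.08 (edgeR adjusted p = 0.754). Psmb9 ran from 3.15 to 4.42 CPM (median 3.61) and from 2.28 to 4.25 CPM (median 3.35), with 0.17 (edgeR adjusted p = 0.499).

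Psmb10 ran from 19.4 to 21.9 CPM (median 20.6) after anti-miR-99b and from 17.0 to 22.996 CPM (median 20.2) after sc-control, with 0.04 (edgeR adjusted p = 0.769). Psme1 averaged 40.1 ± 1.32 CPM (SD, n = 7) and 39.6 ± 1.46 CPM (n = 8), with 0.02. The constitutive Psmb5, Psmb6 and Psmb7 had log2 fold changes of 0.07, 0.05 and 0.06, and Psme3 of 0.00 (edgeR adjusted p = 0.557, 0.460, 0.306 and 0.953). The standard errors of Psmb8 and Psmb9 were 0.09 and 0.10, and the groups overlapped for both.

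Microglia markers were higher in these co-cultures, 14 of 15 tested with a median log2 fold change of 0.33. Called were 8 of them, among them C1qa, C1qb and C1qc (complement), Csf1r (the receptor of the macrophage growth factor) and Trem2. The summed level of the 16 ran from 212 to 246 CPM after anti-miR-99b and from 178 to 221 CPM after sc-control. The part of that level in the values of the inducible genes was not tested. The 12 neuron markers had 6 above 0 and a median of 0.00.

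**Figure D3:**
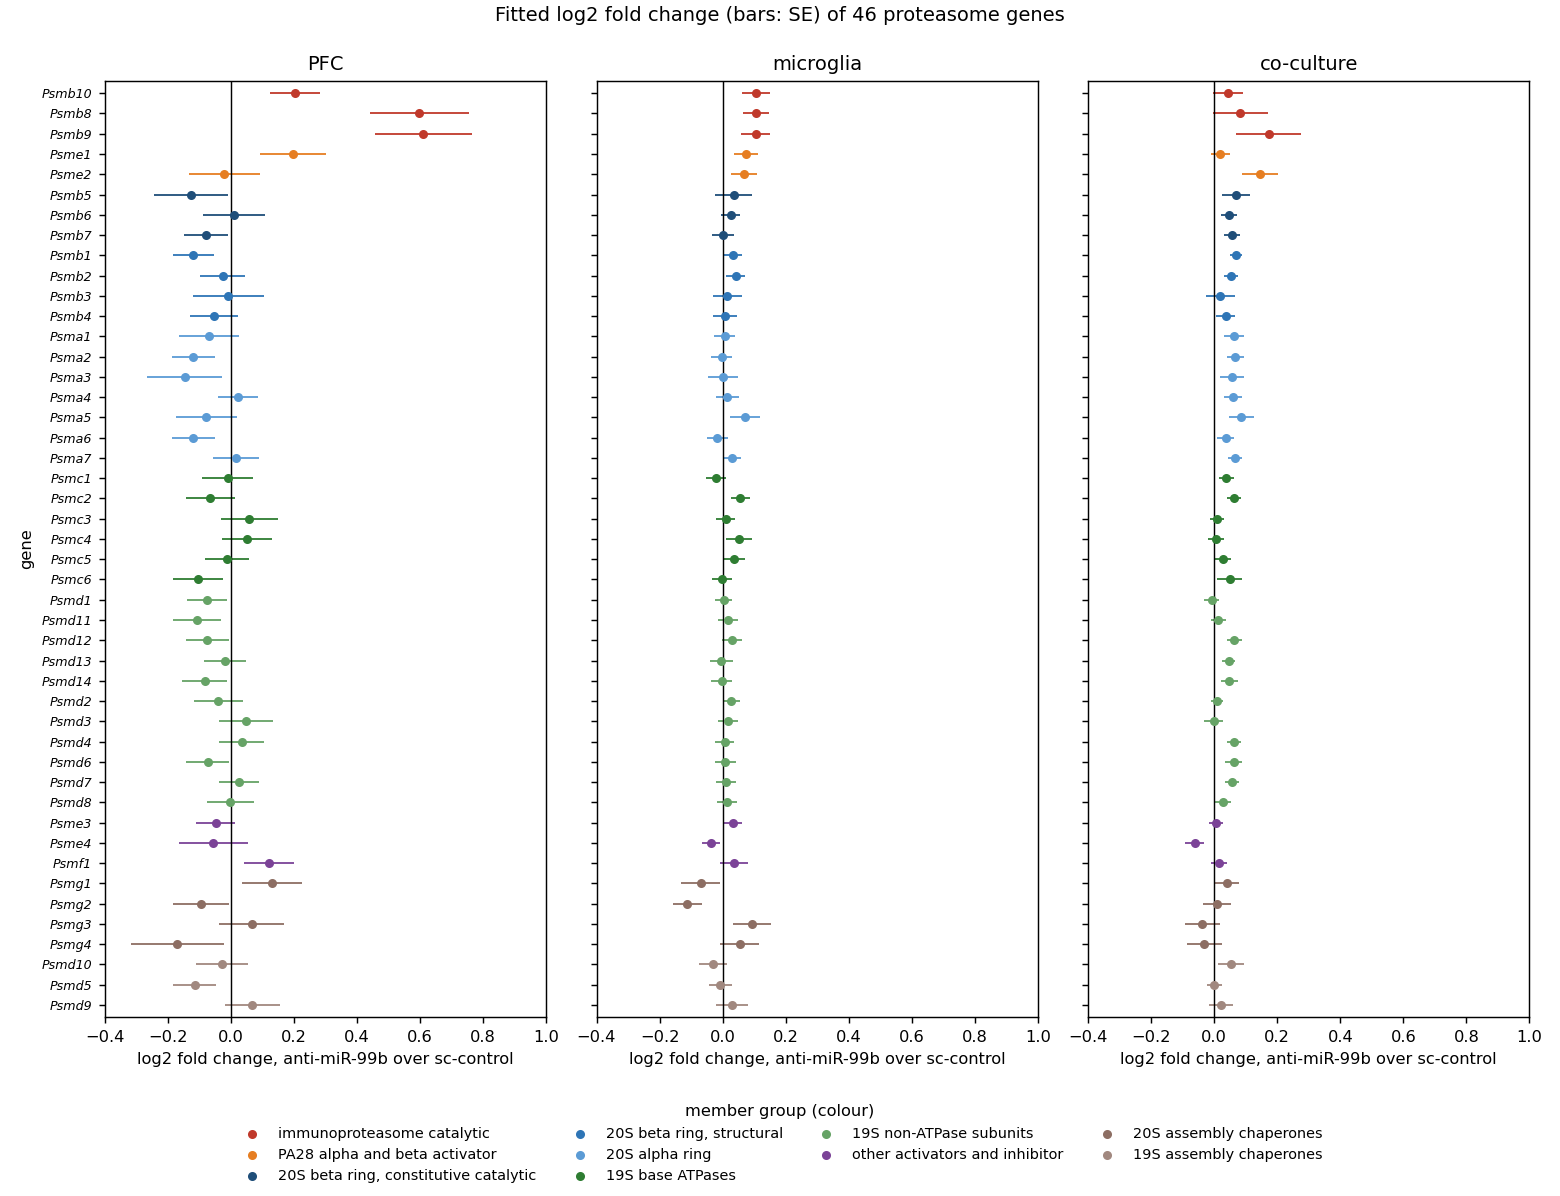
Fitted log2 fold change of anti-miR-99b over sc-control with its standard error for 46 members (5 inducible and 41 constitutive) in each experiment, coloured by group. In the PFC Psmb8 (0.60) and Psmb9 (0.61) stand apart to the right, in the microglia all 5 inducible genes lie between 0.07 and 0.11, and in the co-cultures 36 of 41 constitutive genes lie above 0.

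Ratios within a library were computed from CPM + 0.5 for each inducible subunit over the constitutive one whose place it takes. In the PFC the log2 ratio of Psmb8 to Psmb5 was -1.50 ± 0.23 after anti-miR-99b and -2.21 ± 0.38 after sc-control (SD, n = 3 each), a difference of 0.71. That of Psmb9 to Psmb6 was -3.70 ± 0.13 against -4.26 ± 0.33, a difference of 0.56, and that of Psmb10 to Psmb7 was -0.43 ± 0.17 against -0.71 ± 0.08, a difference of 0.28. None of the 3 ratios overlapped between the groups. The exact two-sided permutation p was 0.1 for each, the smallest that 3 against 3 allows (0.171 adjusted over the 9 ratios tested). Per kilobase of exon, Psmb8 made up 8.30 ± 1.27% of Psmb8 and Psmb5 together after anti-miR-99b and 5.15 ± 1.44% after sc-control. Such a share depends on exon lengths merged over all annotated transcripts, 3381 bases for Psmb8 and 899 for Psmb5.

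In the microglia the ratio of Psmb8 to Psmb5 ran from 2.01 to 2.08 after anti-miR-99b and from 1.95 to 2.00 after sc-control. The groups did not overlap, the difference was 0.08, and the exact permutation p was 0.0286, the smallest that 4 against 4 allows (0.171 adjusted over 9). Sc-control replicate 2, which was high for Psmb8 itself, was also high for Psmb5 (18.7 CPM against 15.5 to 16.4 in the other controls). The ratios of Psmb9 to Psmb6 and of Psmb10 to Psmb7 differed by 0.07 and 0.10, with overlapping groups (exact permutation p = 0.114 each, 0.171 adjusted). As a share per kilobase, Psmb8 made up 53.0 ± 0.572% of its pair after anti-miR-99b and 51.7 ± 0.502% after sc-control. In CPM the sc-control microglia averaged 66.5 for Psmb8 and 16.5 for Psmb5, so this near-even share rests on the merged exon lengths.

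In the co-cultures the differences were 0.00 for Psmb8 to Psmb5, 0.12 for Psmb9 to Psmb6 and -0.01 for Psmb10 to Psmb7. Their exact permutation p-values were 0.984, 0.272 and 0.806 (0.984, 0.350 and 0.907 adjusted). Of the 9 ratios 0 had an adjusted p under 0.05. The 3 ratios in the PFC could not reach it, since 3 against 3 allows no permutation p under 0.1.

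**Figure D4:**
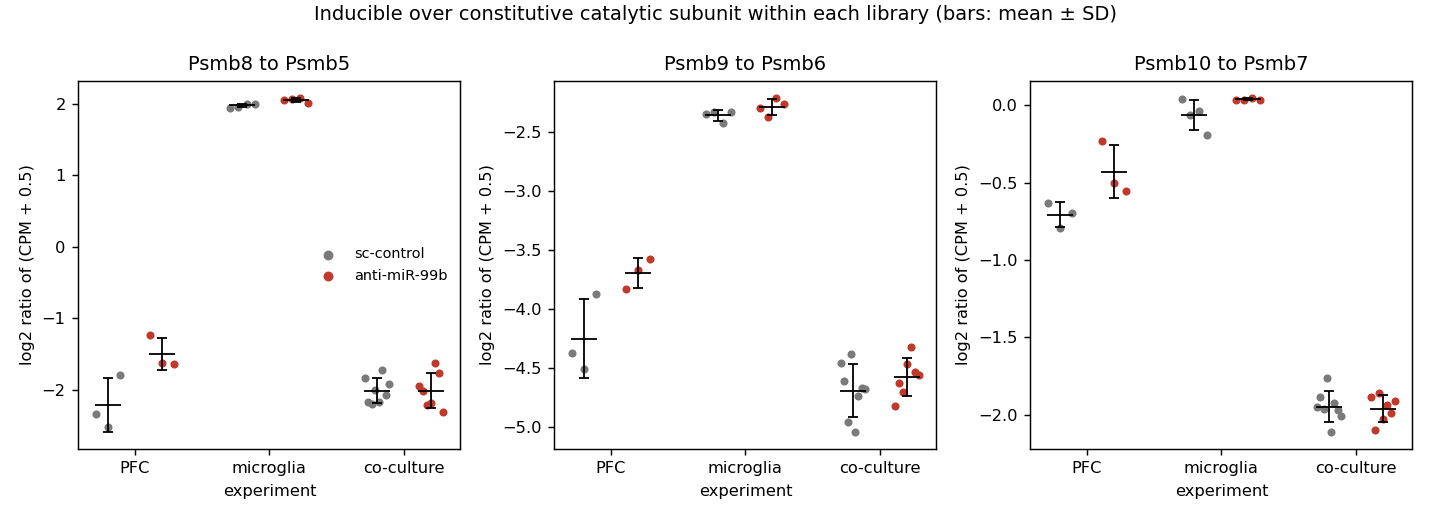
Log2 ratio of CPM + 0.5 of each inducible catalytic subunit over its constitutive counterpart in every library, with bars for the mean and SD. In the PFC the anti-miR-99b mice lie above the sc-control mice for all 3 ratios, and in the co-cultures the groups overlap.

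Whether the effect of anti-miR-99b differed between the experiments was tested over all 29 libraries with a shared estimate of the spread. At an edgeR adjusted p under 0.05, 1 of 49 members differed between the PFC and the co-cultures, 0 between the PFC and the microglia and 0 between the microglia and the co-cultures, against 0.791%, 0.469% and 0.0844% of all genes. That member was Psmb1, whose log2 fold change was lower by 0.18 in the PFC (difference -0.18, standard error 0.04, edgeR adjusted p = 0.0374). In the PFC it stood at 90.1, 95.6 and 92.8 CPM after anti-miR-99b and at 106, 99.3 and 97.4 CPM after sc-control, groups without overlap in the opposite direction to the co-cultures. Its log2 fold change in the PFC alone was -0.12 (standard error 0.065, edgeR adjusted p = 0.671), and it passed the threshold in neither experiment. That standard error was above the one of the difference, so the shared spread understates the spread of Psmb1 in the PFC. Psmb8 had a log2 fold change larger by 0.51 in the PFC than in the co-cultures (standard error 0.15, edgeR adjusted p = 0.0890) and by 0.47 than in the microglia (standard error 0.13, edgeR adjusted p = 0.1098). Psmb9 differed by 0.44 (edgeR adjusted p = 0.197) and 0.49 (0.159). With DESeq2 the adjusted p of Psmb8 was 0.0262 and 0.0346, where 3 members differed between the PFC and the co-cultures and 2 between the PFC and the microglia, against 2.67% and 1.47% of all genes, and 0 between the microglia and the co-cultures (0.206%). With RLE factors 1 member differed between the PFC and the co-cultures (0.944% of all genes), and 0 in the other contrasts (0.485% and 0.0896%). With no filter 3 differed between the PFC and the co-cultures (2.14%), and 0 between the PFC and the microglia (0.640%) or the microglia and the co-cultures (0.153%).

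Other genes of the pathway were grouped as 21 accessory and regulatory genes, 13 genes of peptide trimming and loading and 13 genes of interferon signalling. The accessory genes, which insert, recycle or control proteasomes, had 0 of 20 called in each experiment, with medians of -0.08 (PFC), 0.00 (microglia) and 0.01 (co-cultures). The trimming and loading genes carry peptides to class I molecules. In the PFC 9 of 13 were above 0 with a median log2 fold change of 0.28 and 0 called, and in the microglia 11 of 13 with a median of 0.03 and 0 called. In the co-cultures 11 of 13 were above 0 with a median of 0.03, and H2-D1, a class I heavy chain, passed the threshold (0.14, edgeR adjusted p = 0.0314).

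The interferon signalling genes had 8 of 13 above 0 in the PFC (median 0.13, 0 called) and 10 of 13 in the co-cultures (median 0.05, 0 called). In the microglia 12 of 13 were above 0 with a median of 0.03. There Stat2, a transcription factor that carries the interferon signal to the nucleus, rose past the threshold (0.33, edgeR adjusted p = 0.0405), while the inducible proteasome genes lay between 0.07 and 0.11.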

How the data were processed

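Total RNA was sequenced as poly-A libraries (TruSeq v2, single reads of 50 bases). The authors deposited 1 table of raw counts per gene for each experiment. Per the labels and methods, reads were demultiplexed with bcl2fastq 2.20.2, checked with FastQC 0.11.5, aligned to mm10 with STAR 2.5.2b and counted with featureCounts 1.5.1. The annotation release and strand setting are not given in the sources used here.

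Each experiment was fitted alone with edgeR 4.0.16 in R 4.3.3 (TMM factors, filterByExpr, quasi-likelihood test, Benjamini-Hochberg over all genes tested). Thresholds were an adjusted p of 0.1 and a log2 fold change of 0.2 in the PFC, 0.1 and 0.1 in the microglia, and 0.05 and 0.1 in the co-cultures. Standard errors are the log2 fold change divided by the root of the F statistic. Ratios used CPM + 0.5 and exact two-sided permutation over libraries. Symbols and exon lengths (merged over all transcripts of a gene) came from GENCODE M21 and sequences from RefSeq. Scripts were tested on simulated counts.

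Genes given in full were the 5 inducible genes, Psmb5, Psmb6, Psmb7, Psme3 and called members, and of each group the extreme members. Psmb1 and Tap1 were picked out after their values were seen. Some items are not reported here. The members and lists were chosen with earlier results of these data known. Alternatives covered RLE and upper-quartile factors, filters, DESeq2 1.42.0, RUVs, lane and replicate blocks and leaving out each library. Same-numbered libraries did not deviate together (correlations from -0.200 to 0.048).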

Additional observations from a re-analysis of the deposited data

Results flagged for a closer look

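The effect on Psmb1 differed between the PFC and the co-cultures in a test that shared 1 estimate of the spread over all 29 libraries. The log2 fold change in the PFC minus that in the co-cultures was -0.18 (standard error 0.04, edgeR adjusted p = 0.0374). In the PFC alone the standard error of Psmb1 was larger, 0.065, so the shared spread understates that of the PFC here. All 3 anti-miR-99b mice were below all sc-control mice, and all 7 anti-miR-99b co-cultures above all 8 sc-control co-cultures. Of all genes, 5.81% were lower without overlap in the PFC and 0.303% higher without overlap in the co-cultures. Psmb1 passed the threshold in neither experiment, with an edgeR adjusted p of 0.671 in the PFC and 0.0794 in the co-cultures. Its signs were not particular to it, as 29 of 41 constitutive genes were below 0 in the PFC and 36 above 0 in the co-cultures.

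Of 48 groups checked for a library far from the others, 2 held one, where chance gives about 1 in 20. The log2 ratio of Psmb10 to Psmb7 in anti-miR-99b microglia was highest in replicate 4, at 0.049, in a group whose lowest value was 0.034. The log2 ratio of Psmb9 to Psmb6 in sc-control microglia was lowest in replicate 4, at -2.43, where the highest was -2.34.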

How the results depend on the processing

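In the PFC 2 members (Psmb8 and Psmb9) passed the threshold with no filter, with a RUVs factor in edgeR or DESeq2, and in the 4 libraries of lane 6 alone, an alternative chosen after seeing the data. When each library was left out in turn the count ran from 0 to 2 in the PFC and from 0 to 3 in the microglia. Replicate numbers did not pair the libraries, and a replicate block gave 2 members in the PFC, 2 in the microglia (Psmb8 and Psmb10) and 0 in the co-cultures. For the difference between experiments, DESeq2 gave 2 members for the PFC minus the microglia and 3 for the PFC minus the co-cultures, and no filter gave 3 for the latter. The cause was not tested.

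Signs turned for values near 0. Psme2 in the PFC was 0.017 with upper-quartile factors, 0.058 in lane 6 and -0.079 to 0.049 with a library left out. Psmb6 in the PFC was -0.0095 with no filter, -0.035 and -0.039 with RUVs in edgeR and DESeq2, -0.11 with the replicate block and -0.050 to 0.11 with a library left out. Psmb7 in the microglia was -0.0015 with RLE, -0.0039 with upper-quartile factors, -0.0028 with 10 counts required, -0.0016 with DESeq2 and -0.020 to 0.025 with a library left out. In the co-cultures the replicate block gave -0.027 for Psmb9, -0.019 for the ratio of Psmb8 to Psmb5 and -0.067 for that of Psmb9 to Psmb6. With a library left out, Psme3 ran from -0.0070 to 0.011, the ratio of Psmb8 to Psmb5 from -0.061 to 0.053 and that of Psmb10 to Psmb7 from -0.036 to 0.014.

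Depth limits the precision of genes with few reads, such as Psmb8 and Psmb9 at 92 to 223 reads per PFC library.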
